A study of Arabidopsis thaliana with 12 samples.

Results

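The response of Arabidopsis thaliana leaves to submergence was followed in atg5, a mutant in the autophagy gene ATG5, by setting the 3 arrays of atg5 leaves collected after 48 h under water against the 3 arrays of atg5 leaves collected at 0 h. These 6 arrays are part of 12; the other 6 hold the same pair of conditions in col, the wild type, and were used to estimate the spread of each gene and to ask where the response of atg5 differed. The atg5 control group consisted of leaves of plants that were 28 days old, had grown with day and night of 12 h each, and were not submerged. The atg5 submerged group consisted of leaves of whole plants of the same age and growth conditions, kept 10 cm below the surface for 48 h with the light cycle continued. Each group had 3 biological replicates, each on its own one-colour Affymetrix array, and total RNA was labelled with biotin. The labels give the genotype as atg5 with no allele or line, and as only the submerged plants were 48 h older at harvest, that age and the submergence cannot be told apart.

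ATG5 is part of a protein conjugate that attaches the small coat protein ATG8 to a lipid, a step needed to enclose cytoplasm in an autophagosome and carry it to the vacuole. Plants without it are known to senesce early and to tolerate darkness and carbon shortage poorly. Under water, gas exchange slows and light is weaker, so leaves run low on oxygen and on newly fixed carbon, while ethylene is trapped inside. Leaves are known to answer such shortages by fermentation genes, by breaking down protein, amino acids and chlorophyll, and by halting growth.

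Values are log2 signals, so that 1 unit is a 2-fold difference, and comparisons are made within a gene, since signals of different probe sets are not on one scale. All arrays share a lowest value of 2.20. A gene within 0.05 of it on all 3 arrays of a group, or with the same value to within 0.01 on all 3 and below 3, is taken to have only an upper limit there, and its change is written "at least". Differences are given with the standard error of a limma model over all 12 arrays, and the words rose and fell are kept for genes whose p, adjusted over all 13355 genes, lay under 0.05. ATG5 itself was not analysed here, so the genotype labels were not checked against it, and neither were the fermentation genes ADH1 and PDC1.

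The 6 atg5 arrays fell into their labelled groups. Within a group, Pearson's r between arrays was 0.994 to 0.996, and between a control and a submerged array it was 0.832 to 0.863. Among 41 loci of 8 cell type marker lists only 7 could be measured. The leaf mesophyll marker RCA (AT2G39730), rubisco activase, read 14.48, 14.46 and 14.46 in the controls and 13.98, 14.08 and 14.03 under water. A root marker, PYK10 (AT3G09260), read 2.20, 2.35 and 2.20 in the controls and 2.20, 2.20 and 2.20 under water, and the flower and pollen marker AT5G45880 lay at the lowest value on all 6 arrays. AT1G22690, listed as a guard cell marker, fell by 2.67, while FMA (AT3G24140), a regulator that defines guard cells, read 5.25, 4.86 and 4.79 before and 5.02, 4.87 and 4.99 after. All 24 probe sets of the poly-A spike-in transcripts were brighter under water, by 0.49 on average, with array means of 5.51 to 5.70 in the controls and 5.86 to 6.20 under water. The 18 hybridization control probe sets differed by -0.10. What part the shift of the spike-in transcripts has in the gene differences was not tested.

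After submergence 5383 genes had changed in atg5, 40.3% of those tested. Leaves are mixtures of cells, so fewer cells of a type and less RNA per cell cannot be told apart. The rises numbered 2554 (19.1%) and the falls 2829 (21.2%). A change of 2-fold or more was reached by 3698 (27.7%), 1660 upward and 2038 downward. The largest changes were more often rises. A rise of at least 6 log2 units, 64-fold, was reached by 87 genes and a fall of that size by 41, and at 8 units, 256-fold, the counts were 24 and 8. At 2 units, 4-fold, the balance was the other way, 821 rises against 1000 falls. The median rise among called genes was 1.38 and the median fall 1.51, while the median over all genes was 0.00, 27.0% of them lying at the lowest value on all 6 arrays. The submerged arrays had lower medians (3.36 to 3.48) than the controls (3.70 to 3.77). Centring every array on its median therefore moves the median of all genes to 0.32 and turns the split into 8481 rises and 2426 falls. It also shifts genes held at the lowest value, where no change was measured, and its rises include such genes. After quantile normalization 2708 genes rose and 2720 fell. The count of small rises thus depends on the scaling.

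**Figure D1:**
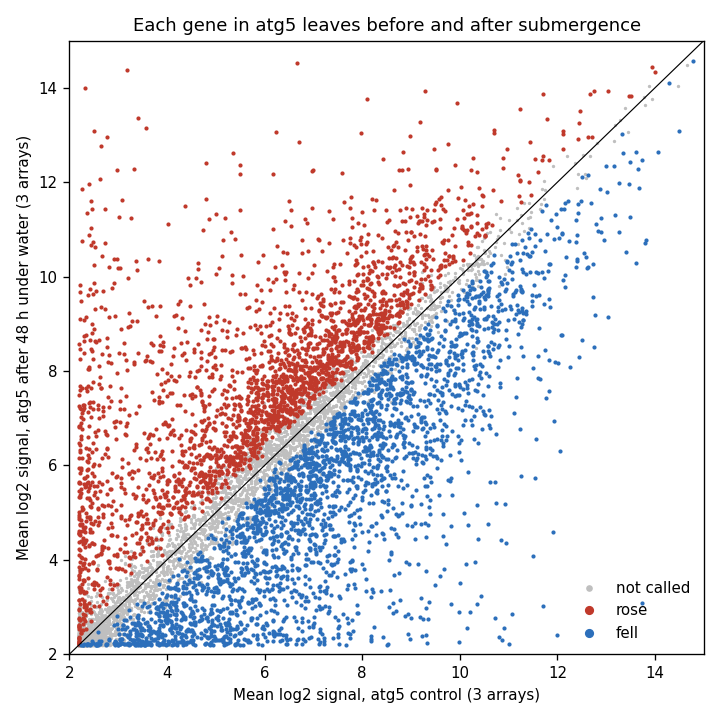
Mean log2 signal of each of 13355 genes in the 3 atg5 controls (horizontal axis) and the 3 submerged atg5 arrays (vertical axis), with 2554 genes that rose in red, 2829 that fell in blue, genes not called in grey and the line of equal signal. Genes that rose from near the lowest value of 2.20 to above 12 line the left edge, and those that fell to it line the lower edge.

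The largest rises were of genes near or at the lowest value in control leaves. AT4G12500, of the lipid transfer protein superfamily, read 2.29, 2.36 and 2.32 in the 3 controls and 13.91, 13.85 and 14.20 under water, a rise of 11.66 ± 0.72 (adjusted p = 2.27e-06). AT4G12490, of the same superfamily, read 3.18, 3.15 and 3.18 before and 14.41, 14.30 and 14.39 after, a rise of 11.20 ± 0.94 (adjusted p = 1.46e-05). They are close relatives that lie near each other on chromosome 4, so their probes may share signal. AT4G22470, of the same superfamily, rose by 8.58 ± 0.16, from 2.43, 2.38 and 2.49 to 11.14, 11.02 and 10.89. Genes measured near these were not called: AT4G12530 and AT4G12540 differed by 0 and -0.01, and AT4G22460 and AT4G22490 by 0.04 and 1.29. The superfamily was not counted as a whole.

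Class III peroxidases, secreted enzymes that use hydrogen peroxide on wall phenolics, gave some of the steepest changes. AT5G64100 read 2.55, 2.55 and 2.39 in the controls and 13.23, 12.95 and 13.08 under water, a rise of 10.59 ± 0.20 (adjusted p = 4.42e-09). Its neighbours AT5G64120 and AT5G64110, also peroxidase genes, rose by 7.87 and at least 4.22. AT5G39580, a peroxidase gene elsewhere on chromosome 5, went from 2.26, 2.20 and 2.29 to 12.16, 11.37 and 12.03. In all 4 genes the lowest submerged array lay above the highest control. These 4 were named for the size of their rise or their place beside such a gene. The peroxidase family was not counted as a whole, so they do not stand for it. Groups that do not overlap, in either direction, were seen for 48.8% of all genes.

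Another group of top risers encodes berberine bridge enzyme-like proteins, oxidases with a bound flavin. AT1G30700 read 2.69, 2.30 and 2.20 before and 11.96, 11.62 and 12.33 after, a rise of 9.57 ± 0.29. All 5 measured genes of a cluster on chromosome 1 rose: AT1G26380 rose by 8.23, AT1G26390 by at least 8.49, AT1G26400 by at least 4.33, AT1G26410 by at least 5.97 and AT1G26420 by 6.95. AT4G20860 rose by 6.67. On chromosome 5, AT5G44380 rose by at least 6.90 and AT5G44390 by 3.74, but AT5G44410, which lies 3 genes from the first, fell by 4.01. Their neighbours AT5G44360 and AT5G44400 were not called, with differences of 0.24 and -1.35, and AT1G30710 and AT1G30740 lay at the lowest value in both groups.

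Receptor-like kinases of the leucine-rich repeat class, proteins that sense signals at the cell surface, rose in a second cluster on chromosome 1. AT1G51890 read 3.71, 3.24 and 3.01 in the controls and 12.36, 12.22 and 12.29 under water. AT1G51850 read 2.53, 2.65 and 2.20 before and 11.43, 11.48 and 11.40 after. AT1G51860 read 2.20, 2.24 and 2.22 before and 9.66, 9.59 and 9.75 after. They rose by 8.97, 8.98 and at least 7.44, and the nearby AT1G51820 and AT1G51830 by 6.78 and 2.12. Of the same stretch, AT1G51810 lay at the lowest value in both groups, and AT1G51840 and AT1G51910 were not called, with differences of 0.14 and -0.01. A neighbouring pair on chromosome 2, AT2G44370 and AT2G44380, which encode cysteine- and histidine-rich C1 domain proteins, rose by 8.99 and 8.68, and AT2G17740, of the same family, by 10.11.

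Several single enzymes complete the 20 largest rises. CCOAMT (AT1G67980), a methyltransferase of the phenylpropanoid route, rose by 9.27 ± 0.28, and cwINV6 (AT5G11920), annotated as a cell wall invertase, by 9.16 ± 0.39. AT5G48430, an aspartyl protease gene, rose by 9.43, AT2G36690, a 2-oxoglutarate-dependent oxygenase gene, by 8.54, and GAT1_2.1 (AT1G15040), a glutamine amidotransferase gene, by 8.49. AT3G46280 had scattered controls, at 4.71, 3.33 and 2.68, and read 13.14, 13.16 and 13.16 under water. AT5G39520 and AT3G18250, which have no function named here, read 13.05, 12.81 and 13.01 and 13.40, 13.12 and 13.58 under water and rose by at least 10.19 and by 9.97.

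Of the called genes, 88 lay at the lowest value on all 3 atg5 controls. Of them, the highest signal after 48 h was that of AT3G13610, which encodes the enzyme F6'H1 of scopoletin synthesis, at 9.80, 9.03 and 10.66, a rise of at least 7.60. AT1G51860 has been given above. AT3G28510, an AAA ATPase gene, reached 9.53, 9.56 and 9.35, and UGT76B1 (AT3G11340), a glycosyltransferase that acts on the defence regulators isoleucic acid and salicylic acid, reached 8.41, 8.59 and 8.72. AT4G00700, a C2 domain gene, reached 8.35, 8.30 and 8.73. The submerged arrays of AT3G13610 spread over more than 1.5 units. For each of the other genes named in this paragraph they stayed within 0.5 of one another.

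**Figure D2:**
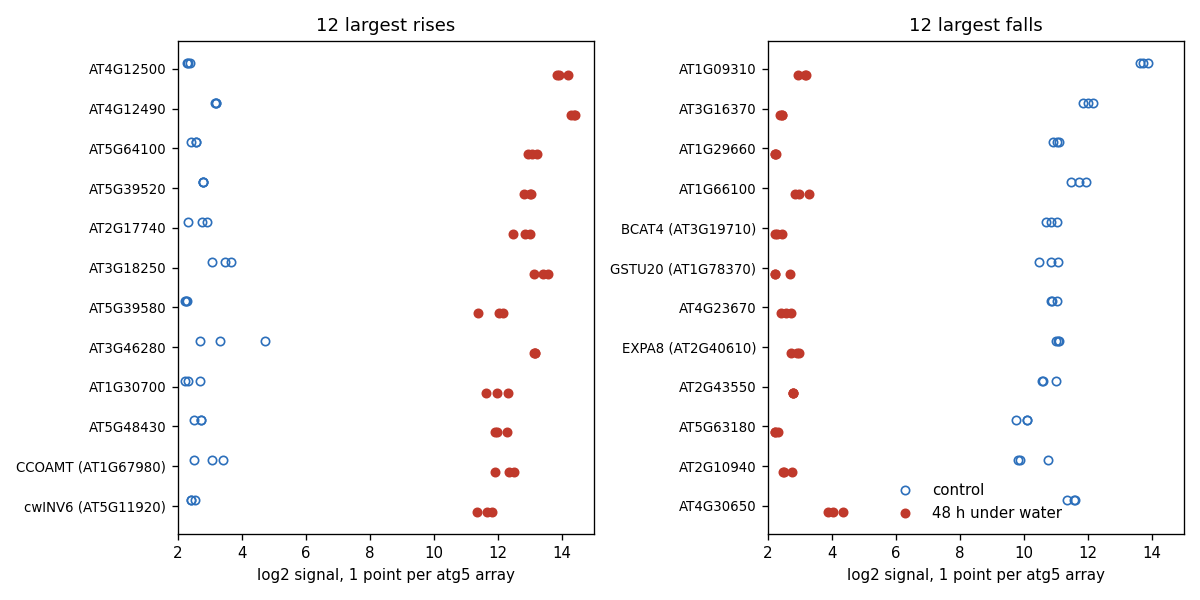
Log2 signal on each of the 3 control arrays (open blue) and 3 submerged arrays (red) of atg5 for the 12 largest rises and the 12 largest falls among called genes whose groups do not overlap. AT3G46280 shows the widest controls, 2.68 to 4.71. The gap between the groups in all of the 24 genes follows from how they were chosen.

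The largest fall was that of AT1G09310, from 13.87, 13.73 and 13.62 to 3.16, 3.19 and 2.93 (-10.65 ± 0.41, adjusted p = 1.92e-07), a gene with no function named here. Genes for lipases and esterases of the GDSL class followed. AT3G16370 fell by 9.59 ± 0.49, from 12.15, 12.00 and 11.85 to 2.43, 2.43 and 2.37. AT1G29660 fell by at least 8.79, from 10.90, 11.04 and 11.09 to the lowest value, its neighbour AT1G29670 by 4.14, and AT1G75900 by at least 6.30. The genes measured within 2 places of AT1G75900 differed by -1.38, 0.00 and -0.07, and only the first of these was called.

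Several genes for enzymes and proteins of the cell wall fell. EXPA8 (AT2G40610), an expansin, read 11.02, 11.11 and 11.07 in the controls and 2.72, 2.97 and 2.89 under water, and fell by 8.20 ± 0.29. The pectate lyase-like genes AT5G63180, AT4G24780 and AT1G04680 fell by 7.73, 7.31 and at least 5.46. The endoglucanase-like genes GH9B7 (AT1G75680) and GH9C2 (AT1G64390) fell by 6.59 and at least 5.30, and the subtilase gene AT4G30020 by 6.84.

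AT1G66100, a thionin gene, fell by 8.68 ± 0.90, from 11.71, 11.93 and 11.48 to 2.83, 2.98 and 3.28, and the defensin-like AT2G43550 by at least 7.95, with its relatives AT2G43530 and AT2G43535 at -4.11 and -3.30. Yet the next gene but one, the chitinase gene CHI (AT2G43570), rose by 4.38. AT4G30650, of a family of small membrane proteins known for cold and salt response, fell by 7.43 and its neighbour AT4G30660 by 4.33. AT4G23670, of the major latex protein family, fell by 8.36, AT2G10940, a proline-rich lipid transfer relative, by 7.58, and DRT100 (AT3G12610), a leucine-rich repeat protein gene, by at least 7.09.

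Among the 20 largest falls were 2 transporters of the major facilitator class, whose submerged arrays scattered. AT4G34950 read 11.70, 12.03 and 11.99 in the controls and 5.38, 3.35 and 5.03 under water, and AT2G16660 read 10.22, 10.48 and 10.37 before and 3.64, 2.37 and 3.17 after. In both the submerged replicate 2 was lowest. They fell by 7.32 and 7.30, and MSRB6 (AT4G04840), a methionine sulfoxide reductase, fell by 6.89 from 9.59, 9.46 and 8.84 to 2.56, 2.24 and 2.41. The set of 20 also holds AT5G16030, with no function named here, which read 10.62, 10.38 and 10.30 before and 3.11, 3.32 and 3.27 after and fell by 7.20. AT5G44680, a DNA glycosylase gene, read 9.92, 10.21 and 9.84 before and 2.77, 3.29 and 2.65 after and fell by 7.08. AT1G20070, also with no function named here, fell by at least 6.33. In all, 108 called genes lay at the lowest value on all 3 submerged arrays.

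For pathways, 35 lists of 1018 loci were read from the arrays, of which 210 loci could be measured, so that each list is seen only in part. Counts of called members are to be read against the 19.1% of all genes that rose and the 21.2% that fell, and medians against 0.00 for all genes. No test was made of a list as a whole.

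The genes of carbon shortage rose. All 4 of the 4 measured loci of a list of dark-induced genes rose, with a median of 3.38. AT3G15450, a gene known to be induced by darkness and low sugar, read 10.17, 9.04 and 8.67 in the controls and 14.07, 13.63 and 14.11 under water and rose by 4.64 ± 0.37. AKINBETA1 (AT5G21170), which encodes part of the SnRK1 kinase that answers to low energy, rose by 2.85, ATL8 (AT1G76410), a ubiquitin ligase, by 3.92, and BZIP53 (AT3G62420), a transcription factor that acts on amino acid breakdown genes, by 1.77. In the fatty acid breakdown list, SDP1 (AT5G04040), the lipase that opens oil stores, rose by 2.38 and AIM1 (AT4G29010), of peroxisomal beta-oxidation, by 0.90, while ICL (AT3G21720), isocitrate lyase of the glyoxylate cycle, lay at the lowest value on all 6 arrays.

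In the list of amino acid breakdown, 14 of 16 rose and 1 fell, with a median of 1.67 and a range from -1.06 to 6.50. AT5G38710, which encodes a proline dehydrogenase, read 4.08, 3.80 and 3.63 in the controls and 10.54, 9.97 and 10.49 under water. AT4G33150, for the first steps of lysine breakdown, read 4.56, 5.22 and 5.24 before and 11.46, 11.26 and 11.28 after. MGL (AT1G64660), methionine gamma-lyase, read 3.14, 3.51 and 2.98 before and 9.25, 8.80 and 8.72 after. These 3 did not overlap between the groups. In the branched-chain amino acid route, IVD (AT3G45300), isovaleryl-CoA dehydrogenase, rose by 4.86, MCCA (AT1G03090) and MCCB (AT4G34030), the subunits of methylcrotonyl-CoA carboxylase, by 4.61 and 1.25, and ALDH6B2 (AT2G14170), methylmalonate semialdehyde dehydrogenase, by 2.75. The electrons such enzymes release pass to the respiratory chain through ETFQO (AT2G43400), which rose by 1.96, and the carrier ETFALPHA (AT1G50940), which rose by 0.81, while its partner ETFBETA (AT5G43430) differed by 0.14 (adjusted p = 0.639). AT5G09300, for a subunit of the branched-chain ketoacid dehydrogenase, fell by 1.06, a call lost under 14 of 21 alternatives (adjusted p up to 0.163).

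Autophagy genes rose in a mutant in which the pathway is known to be blocked. Of 20 measured, 16 rose and 0 fell, with a median of 1.32. The other 4 differed by -0.09 to 0.53. The largest rises were in ATG8 coat genes, with APG8A (AT4G21980) at 3.06, ATG8B (AT4G04620) at 2.87 and ATG8E (AT2G45170) at 2.82, whereas ATG8C (AT1G62040) rose by 0.58. APG8A, for example, read 8.14, 7.91 and 8.07 in the controls and 11.18, 10.82 and 11.30 under water. AT1G77890, for the vesicle nucleation subunit ATG14a, rose by 2.77, AT3G61960, for the kinase ATG1a, by 2.17, and ATG3 (AT5G61500), the enzyme that passes ATG8 to its lipid, by 1.12. The same list had a median of 1.79 in col, where 18 rose. The difference in response between the genotypes was called for none of its members, which does not show the responses to be equal.

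Genes of other routes of protein turnover were also called. Of 9 proteasome subunit genes, 4 rose, none fell and all 9 differences were above 0, from 0.18 to 1.45. All 9 passed after median centring, which called 8481 of all 13355 genes as rises, and 3 passed after quantile normalization. AT1G75990 and AT5G23540, for lid subunits, rose by 1.45 and 1.42. Genes for ubiquitin-conjugating enzymes went both ways, 5 of 12 up, led by UBC32 (AT3G17000), an enzyme of the endoplasmic reticulum, at 1.99, and 2 down, with UBC20 (AT1G50490), an enzyme known from dividing cells, at -2.03. GAMMA-VPE (AT4G32940), a processing protease of the vacuole, rose by 2.16. In the endosomal sorting genes with VPS symbols, 6 of 10 rose, VPS60.1 (AT3G10640) by 2.65, and 2 fell.

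The endoplasmic reticulum list had 5 rises among 7, no fall, and a median of 1.60. All 3 measured transcription factors of the unfolded protein response rose, BZIP60 (AT1G42990) by 2.86, BZIP28 (AT3G10800) by 1.81 and BZIP17 (AT2G40950) by 1.60. BZIP60 read 7.57, 7.31 and 7.38 in the controls and 10.48, 9.94 and 10.41 under water. Its co-chaperone target ATERDJ3B (AT3G62600) rose by 2.43 and the calreticulin gene CRT1b (AT1G09210) by 1.42. The heat shock list had no call among 4, with AT5G48570, an immunophilin gene, at -0.97 (adjusted p = 0.101).

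**Figure D3:**
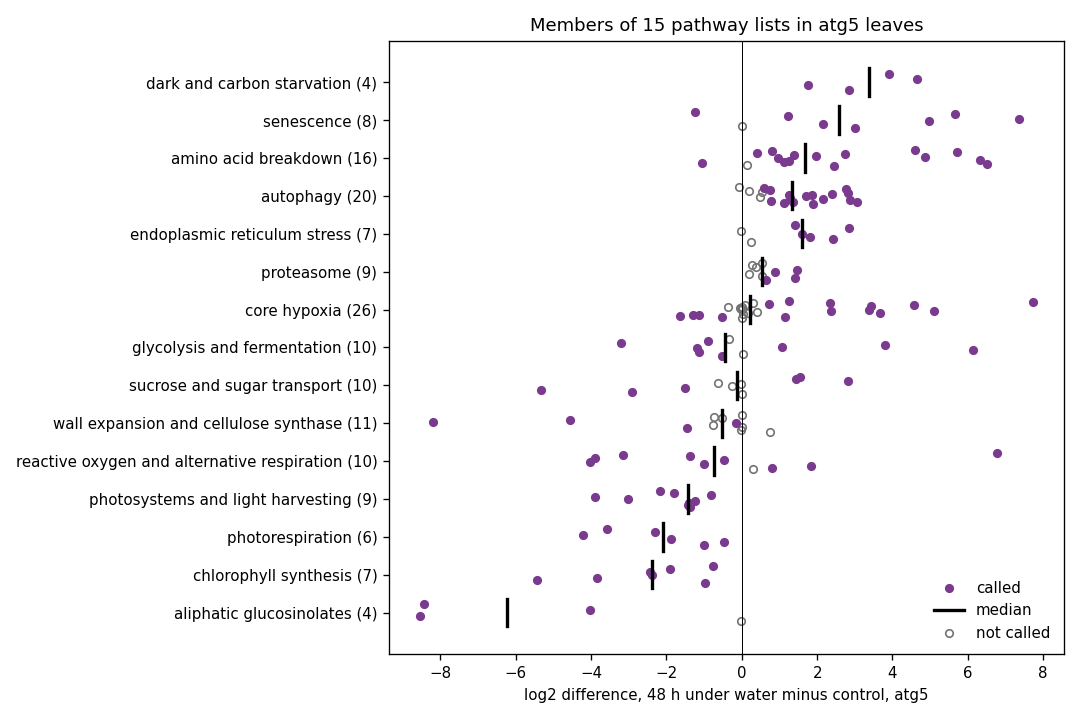
Log2 difference between submerged and control atg5 leaves for each measured member (number in parentheses) of 15 lists; filled points passed the test, open points did not, and bars mark the medians. Members of the starvation, amino acid, autophagy and endoplasmic reticulum lists lie mostly to the right, those of the photosynthesis lists to the left, and the hypoxia, glycolysis and sugar transport lists lie on both sides of 0.

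The core response to low oxygen was mixed. Of 26 measured genes 11 rose and 4 fell, and 11 did not pass, with a median of 0.23. AT1G19530 read 2.49, 2.55 and 2.47 in the controls and 10.23, 10.41 and 10.07 under water, a rise of 7.73 ± 0.10. AT4G27450 rose by 5.09, CML38 (AT1G76650), a calmodulin-like protein of stress granules, by 4.58, and AT4G39675 by 3.67. Against these, AT5G47060, AT5G42200 and AT5G44730 fell by 1.64, 1.30 and 1.15, and PDC2 (AT5G54960), a pyruvate decarboxylase of fermentation, fell by 0.54, a call lost under 9 of 21 alternatives (adjusted p up to 0.211). After median centring, which called 8481 of all 13355 genes as rises, 20 of the list rose, and after quantile normalization 11 did. AT4G10270 and AT3G10040, both known as hypoxia genes of seedlings, differed by -0.03 and -0.05. Both were among the dim genes left out in 1 alternative, so these values do not show that they failed to respond. Of the 26 genes, 2 lay at the lowest value on all 6 arrays.

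Central carbon metabolism likewise split within the pathway. PPDK (AT4G15530), pyruvate orthophosphate dikinase, which can turn pyruvate back to phosphoenolpyruvate, read 6.94, 6.17 and 6.99 in the controls and 12.90, 12.78 and 12.86 under water and rose by 6.15 ± 0.24. ALDH7B4 (AT1G54100), an aldehyde dehydrogenase, rose by 3.81. The glycolytic genes TPI (AT3G55440), triose phosphate isomerase, and GAPC2 (AT1G13440), glyceraldehyde phosphate dehydrogenase, fell by 1.18 and 0.90, and AT1G20950, for a subunit of the pyrophosphate-dependent phosphofructokinase, fell by 3.19, while AT1G76550, also for a subunit of that enzyme, rose by 1.08. AT4G17260, a lactate dehydrogenase gene, fell by 1.15. Among starch enzymes, DPE1 (AT5G64860) and PWD (AT5G26570) of breakdown fell by 3.59 and 2.32, and SBE2.2 (AT5G03650) and APL3 (AT4G39210) of synthesis by 2.21 and 1.82.

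Sugar carriers were called in both directions. The vacuolar carriers SWEET17 (AT4G15920) and TMT2 (AT4G35300) fell by 5.33 and 2.91, whereas SWEET2 (AT3G14770) and TMT1 (AT1G20840), also of the vacuole membrane, rose by 2.83 and 1.54. SWEET17 read 7.70, 7.74 and 7.84 in the controls and 2.44, 2.57 and 2.26 under water, with no overlap. SWEET11 (AT3G48740), of phloem loading, read 12.61, 12.46 and 12.23 before and 11.84, 12.20 and 12.49 after, groups that overlap, and did not pass (adjusted p = 0.484).

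Every measured nuclear gene of the photosystem, chlorophyll synthesis and photorespiration lists fell. All 9 of 9 photosystem and light harvesting genes fell, from -3.89 to -0.82, as did 7 of 7 for chlorophyll synthesis, with a median of -2.38, and 6 of 6 for photorespiration, with a median of -2.09. CHLI2 (AT5G45930), a subunit of magnesium chelatase, read 10.03, 10.26 and 10.24 in the controls and 4.91, 4.66 and 4.64 under water. PORB (AT4G27440), the light-dependent protochlorophyllide reductase, read 12.53, 12.53 and 12.44 before and 8.82, 8.90 and 8.22 after. LHCB4.3 (AT2G40100) and LHCB4.2 (AT3G08940), antenna proteins of photosystem II, fell by 3.89 and 3.03, but PSBW (AT2G30570), a small subunit of the same photosystem, by 0.82. In photorespiration, AT1G32470 and AT1G11860, for the H and T proteins of glycine decarboxylase, fell by 4.22 and 3.58, and HPR (AT1G68010), hydroxypyruvate reductase, by 1.87. Of 3 measured genes of the Calvin cycle list 2 fell, SBPASE (AT3G55800) by 2.46. The other, RCA, given above, differed by -0.44 and did not pass (adjusted p = 0.0998).

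Of 69 measured genes of the plastid's own genome, 39 fell and 1 rose, with a median of -0.52; after median centring 29 fell and 9 rose. The ribosomal protein genes rpl16 (ArthCp060) and rpl14 (ArthCp059) fell by 2.44 and 2.09, rpoC1 (ArthCp013), a subunit of the plastid RNA polymerase, by 2.19 and ycf3 (ArthCp023), an assembly factor of photosystem I, by 2.42. petD (ArthCp054), of the cytochrome b6f complex, was the one that rose, by 0.73, a call lost under 5 of 21 alternatives (adjusted p up to 0.0827). accD (ArthCp031), of fatty acid synthesis, was among the 5 steadiest bright genes, at 10.30, 10.29 and 10.19 before and 10.46, 10.46 and 9.87 after. Of the 16 mitochondrial genes that could be recognised by name, 2 rose, cox1 by 0.83 and ccb452 by 1.58, and none fell. The count of rises depends on the scaling, with 13 after median centring and 6 after quantile normalization. The spike-in shift given above runs upward across the same arrays, and its part in these organelle values was not tested.

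Regulators known from senescence and pathogen response rose from low levels. Of 7 measured WRKY factors, 4 rose: WRKY22 (AT4G01250) by 7.36, WRKY6 (AT1G62300) by 5.67, WRKY53 (AT4G23810) by 4.96 and WRKY47 (AT4G01720) by 4.89. WRKY22 read 2.65, 2.65 and 2.24 in the controls and 9.93, 9.99 and 9.70 under water. ZAP1 (AT2G04880), WRKY42 (AT4G04450) and WRKY20 (AT4G26640) did not pass, at -0.17, 0.00 and 0.07. STZ (AT1G27730), a zinc finger repressor of stress responses, rose by 6.78, and the immunity genes BIK1 (AT2G39660), a receptor-associated kinase, SAG101 (AT5G14930), a partner of EDS1, and GRX480 (AT1G28480), a glutaredoxin, by 4.15, 3.02 and 1.70. The call of GRX480 was lost under 7 of 21 alternatives (adjusted p up to 0.121). Of the list of 8 senescence genes, which holds some of these, 6 rose and 1 fell.

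Calcium sensor genes had calls in 1 direction, with 4 rises and 0 falls among 9. The calmodulin-like genes CML41 (AT3G50770), CML37 (AT5G42380) and CML43 (AT5G44460) rose by 5.68, at least 3.12 and 2.48, while CML42 (AT4G20780), CML30 (AT2G15680) and CML23 (AT1G66400) did not pass, at -0.47, -0.17 and 0.10. The U-box ligases PUB22 (AT3G52450) and PUB23 (AT2G35930), known as brakes on pathogen signalling, rose by 7.01 and 5.95. PUB22 read 3.13, 2.64 and 2.31 in the controls and 9.74, 9.43 and 9.94 under water. PUB24 (AT3G11840), which acts with them, rose by 2.80, and PUB25 (AT3G19380) and PUB26 (AT1G49780) fell by 1.69 and 1.83. The chitinase genes CHI and ChiC (AT4G19810) rose by 4.38 and 5.02. Of the glutamate receptor-like channel genes, ATGLR1.2 (AT5G48400) rose by 5.65 and GLR3.6 (AT3G51480), of wound signalling, fell by 1.32.

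Of 9 genes grouped with the tubulins, 6 fell and 1 rose. TUB5 (AT1G20010) read 10.97, 10.82 and 10.72 in the controls and 4.45, 4.52 and 4.30 under water and fell by 6.41, TUB7 (AT2G29550) by 4.41, TUB6 (AT5G12250) by 3.33 and TUB1 (AT1G75780) by 2.57. TUA1 (AT1G64740), an alpha-tubulin known mainly from pollen, was the one that rose, by 2.10. IQD genes, whose products bind calmodulin and microtubules, had 7 falls and 0 rises among 15, led by IQD24 (AT5G07240) at -4.67 and IQD21 (AT3G49260) at -4.24. In the cell cycle and DNA replication list, 2 of 6 fell and none rose. PRL (AT4G02060), a helicase subunit of DNA replication, was 1 of them and fell by 2.46. Of 5 histone-related genes 1 fell, HTB2 (AT5G22880), by 3.21, and 1 rose.

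Beside EXPA8, the wall list lost EXPA4 (AT2G39700), which fell by 4.56, with 4 falls and 0 rises among 11. XTH32 (AT2G36870), a xyloglucan endotransglucosylase, fell by 5.07 and was the one call among 9 XTH genes. The TBL genes, for wall acetylation, had 6 falls and 2 rises among 22, and the serine carboxypeptidase-like SCPL genes 12 and 1 among 29. The signal peptide genes RALFL34 (AT5G67070) and RALFL24 (AT3G23805) fell by 6.75 and 4.32, while RALFL18 (AT2G33130) rose by 2.79.

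Genes for the synthesis of aliphatic glucosinolates, defence compounds made from methionine, fell. BCAT4 (AT3G19710), which starts the lengthening of methionine, read 10.70, 10.84 and 11.03 in the controls and 2.29, 2.20 and 2.42 under water. GSTU20 (AT1G78370), a glutathione transferase tied to the core pathway, read 10.49, 10.85 and 11.06 before and 2.20, 2.20 and 2.67 after, with 2 of its 3 submerged arrays at the lowest value, and AT2G31790, a glucosyltransferase of the last core step, fell by 4.02. These are 3 of 4 measured, the other being AOP3 (AT4G03050), which read 2.22, 2.25 and 2.22 before and 2.22, 2.22 and 2.22 after and was not called. APS3 (AT4G14680), which activates sulfate, fell by 2.85 and its relative APS4 (AT5G43780) rose by 0.78. In the other glutathione transferases, GSTU18 (AT1G10360) fell by 4.42 and GSTU16 (AT1G59700) rose by 0.80.

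Hormone-related genes gave calls in both directions. WES1 (AT4G27260), which conjugates auxin to amino acids, read 2.47, 2.37 and 2.20 in the controls and 9.15, 9.08 and 8.09 under water and rose by 6.42, and IAA29 (AT4G32280), an auxin repressor linked to elongation, fell by at least 2.13. Of the gibberellin receptors, GID1B (AT3G63010) rose by 4.84 and GID1C (AT5G27320) by 1.14, but GID1A (AT3G05120) fell by 0.89. The cytokinin response regulators RR16 (AT2G40670) and ARR15 (AT1G74890) fell by 2.17 and 1.77. EIN3 (AT3G20770), the main transcription factor of ethylene signalling, rose by 1.44. The cold and dehydration genes COR15A (AT2G42540) and COR15B (AT2G42530) fell by 6.07 and 5.94. COR15A read 9.37, 8.20 and 9.08 in the controls and 2.83, 2.57 and 3.05 under water.

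The list of reactive oxygen and respiration genes had 3 rises and 6 falls among 10, and its peroxidases went both ways. AT3G52960 and AT3G11630, for peroxiredoxins of the chloroplast, fell by 4.02 and 3.89, and TAPX (AT1G77490), the thylakoid ascorbate peroxidase, by 3.16. NDB2 (AT4G05020), an external NADH dehydrogenase of mitochondria, rose by 1.83, and SAPX (AT4G08390), a stromal and mitochondrial ascorbate peroxidase, by 0.81. FDH (AT5G14780), formate dehydrogenase of mitochondria, rose by 2.39 from an already bright 10.91, 10.62 and 10.59.

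Of 47 UDP-glycosyltransferase genes, 10 rose and 10 fell, the extremes being UGT76B1 and UGT76E11 (AT3G46670), at -4.42. Of 24 cytochrome P450 genes, 8 rose and 5 fell, and 10 lay at the lowest value on all 6 arrays. Neighbours in one P450 cluster on chromosome 3 separated: CYP71B23 (AT3G26210) rose by 6.01 and CYP71B24 (AT3G26230) by 2.91, while CYP71B34 (AT3G26300) fell by 1.42 and CYP71B35 (AT3G26310) by 2.04, and CYP71B36 (AT3G26320), next to the last, rose by 2.25. Of 40 AGAMOUS-like MADS genes, 21 lay at the lowest value on all 6 arrays, with AGL87 (AT1G22590) at -3.25 and AGL18 (AT3G57390) at 1.64 as the largest changes.

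The response of col was measured in the same way on arrays of its own, and 20.4% of genes rose and 22.1% fell in it. In col 4726 of the 5383 genes called in atg5 were called in the same direction, 7 in the opposite one, and 650 did not pass. Among those 650, the difference between the genotypes was itself called for 15. The difference in response, atg5 minus col, was called for 80 genes, 0.599% of those tested, 45 above 0 and 35 below, with sizes from 0.16 to 3.74. At an unadjusted p below 0.05 there were 1532. The count rests on single col and atg5 arrays: without submerged col replicate 3 it was 186, without control col replicates 2 or 3 it was 126 and 137, and without submerged atg5 replicate 1 it was 51. It was 134 after median centring and 156 without dim genes.

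Of the 80 genes, 40 responded in the same direction in both genotypes, 32 with the smaller change in atg5 and 8 with the larger. Another 21 passed in col and not in atg5, 15 in atg5 and not in col, and 4 moved in opposite directions. Of the 80, 39 differed between the genotypes in control leaves (2.34% of all genes did) and 41 under water (3.42% of all genes). Of these, 2 differed in both, and 2 of the 80 differed in neither. The difference in response is the genotype difference under water minus that in control leaves. High shares among the 80 therefore follow from how they were selected and are no separate result.

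**Figure D4:**
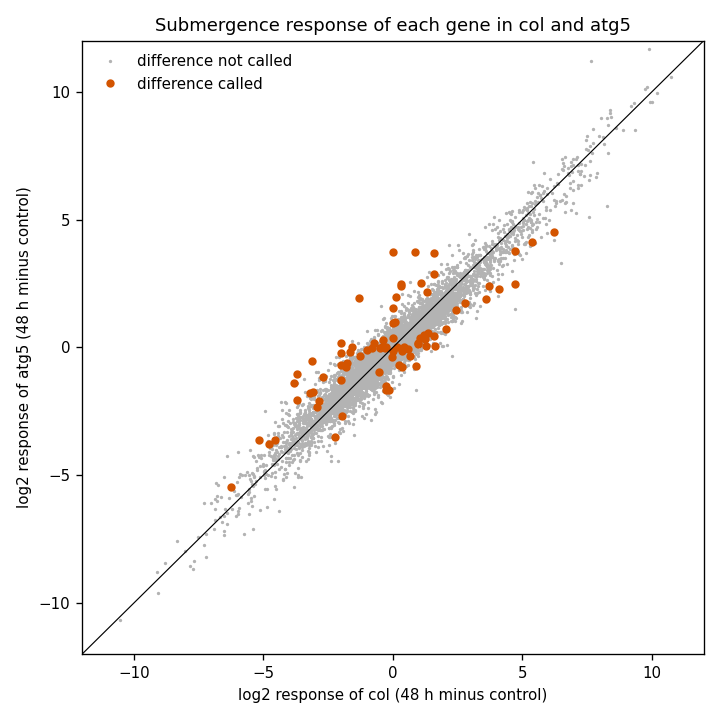
Log2 response to submergence of each gene in col (horizontal axis) and atg5 (vertical axis), with the 80 genes whose responses differed in orange and the line of equal response. Most genes lie along the line, and the orange points lie off it by 0.16 to 3.74.

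Among the largest differences, some genes rose in atg5 and stayed low in col. AT2G19200, which has no function named here, lay at the lowest value on all 3 controls of both genotypes and on all 3 submerged col arrays, and read 5.27, 6.19 and 6.37 in submerged atg5. The difference in response was 3.74 ± 0.33 (adjusted p = 0.00392). M10 (AT2G41280), a late embryogenesis abundant protein gene, read 6.54, 5.74 and 5.99 in submerged atg5 and 3.35, 3.30 and 2.94 in submerged col (2.86 ± 0.28, adjusted p = 0.00608). LUP5 (AT1G66960), an oxidosqualene cyclase gene, read 4.35, 5.01 and 4.71 in atg5 and 2.40, 2.33 and 2.92 in col (2.13 ± 0.26, adjusted p = 0.0148).

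AT5G24240, for a phosphatidylinositol 4-kinase-like protein, was apart from col at both times. It read 6.81, 7.38 and 7.01 in atg5 controls and 9.46, 9.50 and 9.66 under water, against 2.87, 2.54 and 2.43 before and 2.94, 2.98 and 2.86 after in col, and the difference in response was 2.15 ± 0.22 (adjusted p = 0.00608). AT5G37590 rose by 1.93 in atg5 and fell by 1.29 in col (3.22 ± 0.47, adjusted p = 0.0282). AT3G01060 read 8.16, 8.26 and 8.17 before and 8.34, 8.29 and 8.50 after in atg5, with no call, and fell by 1.99 in col (2.17 ± 0.24, adjusted p = 0.00748).

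In a further set the genotypes met under water from different starts. AT4G29020 read 4.14, 4.40 and 3.80 in atg5 controls and 7.16, 6.48 and 7.34 in col controls, but after 48 h 3.09, 3.01 and 3.07 in atg5 and 3.09, 3.22 and 3.57 in col (2.65 ± 0.34, adjusted p = 0.0163). AT5G07030, an aspartyl protease gene, and AT5G45670, a GDSL lipase gene, also started lower in atg5. AT5G07030 read 4.07, 3.73 and 3.05 in atg5 controls and 5.84, 5.74 and 6.47 in col controls, and AT5G45670 read 2.90, 3.14 and 2.21 in atg5 and 5.10, 5.97 and 4.90 in col. Both lay at the lowest value on all submerged arrays of both genotypes, so their differences in response, 2.40 (adjusted p = 0.0336) and 2.57 (adjusted p = 0.0437), stand for the differences between the controls. AT1G64360 started higher in atg5, 6.53, 6.90 and 6.04 against 4.81, 4.04 and 4.14, and ended at 8.83, 9.03 and 9.04 against 9.31, 8.81 and 9.02 (-2.25 ± 0.37, adjusted p = 0.0446).

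Of the called differences of smaller size, FDH, NTRC and PYE were picked for their known roles after their values were seen. FDH rose by 3.72 in col, against 2.39 in atg5 (-1.33, adjusted p = 0.0446). NTRC (AT2G41680), a thioredoxin reductase of chloroplasts, fell by 1.27 in atg5 and 2.01 in col (0.74, adjusted p = 0.0148). UBC16 (AT1G75440), a ubiquitin-conjugating enzyme, rose by 1.45 and 2.44 (-0.99, adjusted p = 0.0319). PYE (AT3G47640), a regulator of iron shortage, fell by 1.66 in atg5, where the change in col was -0.26 and did not pass (-1.40, adjusted p = 0.0184). Of the hypoxia list, AT1G72940, a TIR domain gene, was called, rising by 0.71 in atg5 and 2.06 in col (-1.35, adjusted p = 0.00639). The 35 pathway lists held no other called difference. The calls of several named differences rested on the processing: that of AT5G45670 was lost under 12 of 20 alternatives (adjusted p up to 0.101), AT1G64360 under 13 of 20 alternatives (adjusted p up to 0.118), FDH under 12 of 20 alternatives (adjusted p up to 0.118) and UBC16 under 9 of 20 alternatives (adjusted p up to 0.112). The call of AT5G07030 was lost under 7 of 20 alternatives (adjusted p up to 0.118), AT5G37590 under 5 of 20 alternatives (adjusted p up to 0.0673), PYE under 3 of 20 alternatives (adjusted p up to 0.0573) and AT4G29020 under 1 of 20 alternatives (adjusted p up to 0.0716).

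**Figure D5:**
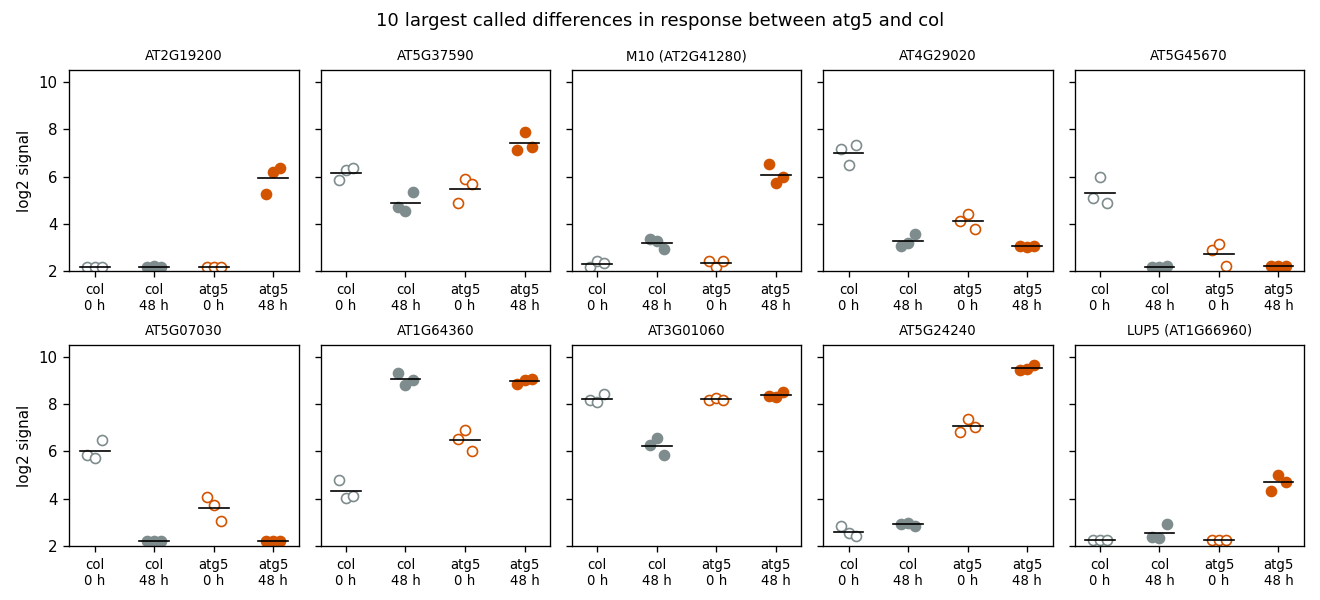
Log2 signal on each array, with group means as bars, of the 10 genes with the largest called difference in response; col in grey and atg5 in orange, controls open and submerged filled. AT2G19200, M10 and LUP5 are higher in submerged atg5 than in the other 3 groups, and AT5G24240 is higher in both atg5 groups than in col.

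The median replicate spread was similar before and after submergence. Over the 3 submerged arrays the median standard deviation was 0.14, and over the 3 controls 0.14, for the 9745 genes off the lowest value. The called gene with the widest submerged arrays was AT1G26400, at 6.48, 5.26 and 7.96, followed by AT5G05250, which fell by 4.43, at 3.10, 5.44 and 5.75 and AT3G55790 at 5.91, 5.0 and 7.58. AT1G13310 read 5.49, 3.57 and 6.01 and AT5G62360, a pectin methylesterase inhibitor gene that fell by 4.46, read 5.82, 8.22 and 6.30. Of all 253 called genes whose submerged arrays spanned more than 1 unit, replicate 1 was highest in 36, replicate 2 in 116 and replicate 3 in 101. Fewer called genes, 184, spanned more than 1 unit over the controls. Among controls the widest were AT5G05600, a 2-oxoglutarate-dependent oxygenase gene, at 4.04, 6.32 and 3.38, AT4G20860 at 7.33, 4.62 and 4.56, AT2G47880, a glutaredoxin gene, at 4.96, 6.54 and 4.20, AT2G25735 at 6.57, 5.21 and 4.25 and AT4G01870 at 6.77, 4.60 and 4.70. In both AT4G20860 and AT4G01870 control replicate 1 was the high one, and all 3 submerged arrays still lay above it.

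Bright genes that kept their level stood beside those that moved. Of 289 genes with a mean of at least 10 in both groups, 186 were called and 84 changed at least 2-fold. The smallest differences were those of AT4G27130, a translation initiation factor gene, at 10.75, 10.69 and 10.78 before and 10.70, 10.77 and 10.74 after, AT4G00780, a TRAF-like gene, at 11.26, 10.90 and 10.88 before and 10.60, 11.11 and 11.35 after, ALDH2C4 (AT3G24503), an aldehyde dehydrogenase of the phenylpropanoid route, at 10.46, 10.19 and 10.01 before and 10.17, 10.34 and 10.16 after, accD, given above, and AT2G46100, at 10.07, 10.06 and 10.06 before and 10.10, 9.97 and 10.10 after. Their groups overlap, and their steadiness holds on the scale of the deposited values: after median centring the differences of AT4G27130 and AT2G46100 were 0.31 and passed. On the array's control probe sets for common housekeeping RNA, actin differed by -0.86 under water and GAPDH by -0.55, and ubiquitin was higher by 1.02, with no overlap between the 3 controls and 3 submerged arrays in any of them.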

How the data were processed

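Leaf RNA of 12 samples, 3 for each of 2 genotypes at 2 times, had been hybridised to Affymetrix ATH1 arrays, 1 array a sample. The deposited values are log2 signals of 22810 probe sets, normalized together by the authors. MAS5 and GCRMA are the tools listed, per the submitters' processing notes, and which of them made the values is not given there. Scanner files were not used here, so background and saturation per spot are unknown, and the number of arrays limits the precision. The 64 control probe sets, 503 paired with several genes and 8730 with no gene in the platform annotation were left out of the tests. Of the rest, 13436 of 13513 were matched to RefSeq genes of TAIR10.1, used for names and gene order alone. Where several probe sets stood for a gene (147 genes), the one with the highest mean over all arrays was kept, which left 13355 genes, 1535 of them with a symbol.

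Differences were fitted with limma 3.58.1 in R 4.3.3 (lmFit and eBayes, 1 mean per group over all 12 arrays, 8 residual degrees of freedom), with Benjamini-Hochberg adjustment over 13355 genes and a threshold of 0.05. The labels call the replicates biological without saying whether a replicate is 1 plant or a pool. Tested on simulated arrays of the atg5 comparison over 13355 genes, the script called 59% of 100 genes changed 2-fold, 93% of 100 changed 4-fold and 6 others. The simulation changed only 200 genes and set no lowest value, whereas 5383 genes were called in the data, so its rates need not hold for them.

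The members, gene lists and tests were chosen with earlier results of these data known. Named by rule were the 20 largest rises and 20 largest falls without overlap between the groups, the 10 largest called differences in response, members of each list, up to 4 in each direction and not all of them printed, 6 genes each at the lowest value before or after, the 5 with the widest replicates in each group, and the 5 steadiest bright genes. Chromosomal neighbours of the named genes, families by symbol, and further list members were added after values were seen, and words that define 2 families were corrected then. Roles of genes are background knowledge. A planned search of promoter motifs was not run, as no sequences were used here. Alternatives tried were quantile normalization, median centring, leaving out dim genes, raising low values, all probe sets, the replicate number as a block, trended and robust priors, array weights, the atg5 arrays alone, and leaving out each array in turn.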

Additional observations from a re-analysis of the deposited data

Results flagged for a closer look

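The responses of 16 genes named in the report differed between atg5 and col by the limma test of the difference itself, adjusted over 13355 genes. Each value is the log2 response of atg5 minus that of col, with 3 arrays in each of the 4 groups. Positive values were 3.74 for AT2G19200, 3.22 for AT5G37590, 2.86 for M10 (AT2G41280), 2.65 for AT4G29020, 2.57 for AT5G45670, 2.40 for AT5G07030, 2.17 for AT3G01060, 2.15 for AT5G24240, 2.13 for LUP5 (AT1G66960), 0.81 for AT1G04680 and 0.74 for NTRC (AT2G41680). Negative values were -2.25 for AT1G64360, -1.40 for PYE (AT3G47640), -1.35 for AT1G72940, -1.33 for FDH (AT5G14780) and -0.99 for UBC16 (AT1G75440). AT1G04680, for a pectate lyase-like protein, AT5G45670 and AT5G07030 lay at the lowest value on the submerged arrays of both genotypes, so their differences in response stand for the differences between the control arrays.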

How the results depend on the processing

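Of 223 named genes whose atg5 response was called, 219 were called in the same direction under all 21 alternatives and none was reversed. The calls of AT5G09300, PDC2 (AT5G54960), GRX480 (AT1G28480) and petD (ArthCp054) were lost under at least 1, single arrays left out among them. Of 31 named genes that were not called, 20 were called under at least 1. Leaving out each array in turn gave 2330 to 2594 rises, 2571 to 2842 falls, 3588 to 3729 genes changed at least 2-fold and 51 to 186 differences in response. The last count, 80, was 134 after median centring and 156 without dim genes. Of 16 named differences in response, 8 were kept under all 20 alternatives. Those of AT5G37590, AT4G29020, AT5G45670, AT5G07030, AT1G64360, PYE, FDH and UBC16 were lost under at least 1. Median centring gave 8481 rises and raised 12 genes at 0, or below it by less than 0.1, to a called difference. Their differences were then 0.32 for AT1G30710, 0.32 for AT1G51810, 0.31 for AT1G51910, 0.31 for AT2G46100, 0.27 for PYK10 (AT3G09260), 0.27 for AT3G10040, 0.32 for ICL (AT3G21720), 0.31 for AOP3 (AT4G03050), 0.32 for WRKY42 (AT4G04450), 0.29 for AT4G10270, 0.31 for AT4G27130 and 0.32 for AT5G45880. That is the shift of all genes. AT1G30740, which differed by 0.0009, was called after median centring too. Same-numbered samples did not deviate together (correlations from -0.48 to 0.10), so the replicate numbers were not taken to pair them; with the number as a replicate block, 2461 genes rose, 2759 fell, 3666 changed at least 2-fold and 34 differed in response. Raising values to the 25th percentile changed no value, as that percentile lies at the lowest value, and is not counted here. At the lowest value a change has only a limit.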
